A study of Drosophila melanogaster with 96 samples.

Results

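Clk, cyc, vri, Pdp1 and cwo are the activator genes of the fly circadian clock and the genes of its second feedback loop. They were taken by name, and all 5 were found by symbol among the 17698 genes of the table. All 5 also passed the filter on low values, at least 1 TPM in at least 24 libraries, which 10568 genes passed. TPM is a read-based level scaled for transcript length and to the same sum in every library. The data are stranded mRNA sequencing of Drosophila melanogaster heads, with 96 libraries in 4 groups of 24. They crossed sex with genotype: females and males, each with Achl RNAi or as a control, where RNAi lowers the mRNA of Achl through double-stranded RNA. Neither the control genotype nor the driver line of the RNAi is stated in the labels. Flies of 3 to 5 days of age were kept at 25 degrees in 12 h of light and 12 h of darkness. All groups were then held in constant darkness from 24 h before the collection until its end. Heads were taken every 2 h, from circadian time (CT) 24 until CT70, and each time point of a group gave 1 library of 7 to 8 pooled heads. CT24 to CT46 is called day 1 here and CT48 to CT70 day 2.

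In the clock, CLK and CYC, transcription factors of the bHLH-PAS family, bind DNA as a pair and activate per and tim, whose proteins later enter the nucleus and block them. The same pair activates vri and Pdp1, which encode bZIP factors that bind shared sites at the Clk gene, where VRI represses and PDP1 has been reported to activate. It also activates cwo, which encodes a bHLH-Orange repressor of CLK and CYC targets. In fly heads these rhythms come from photoreceptors, glia and fat body as well as from the few clock neurons of the brain.

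There was 1 library per group and time point, so no time point is replicated, and errors are SDs within a group or standard errors (SE) of fitted courses. Sequencing depth is unknown because TPM carry no counts. Achl was lower in RNAi than in control in 24 of 24 pairs of libraries of the same CT in each sex. Photoreceptor, neuron and glia markers were all present in every group, while all 5 ovary markers and the 4 male reproductive markers found had a median under 1 TPM. Of 6 fat body markers, 2 had a median under 1 TPM in every group. Their summed TPM had a median of 3579 in female controls, 3224 in RNAi females, 3258 in male controls and 1893 in RNAi males. The summed TPM of 8 photoreceptor markers moved with the RNAi: its median was 53661 in female controls, 28039 in RNAi females, 43141 in male controls and 26175 in RNAi males. The mitochondrial ribosomal RNA mt:lrRNA was under 50000 TPM in 14 female control and 15 libraries of RNAi females, called low-mt below, and in 0 male libraries. The other female libraries are called high-mt. All 12 day 2 libraries of each female group were low-mt, so day and mt:lrRNA level cannot be told apart there. In bulk heads, fewer cells of a type and less RNA per cell cannot be told apart either.

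Pdp1 had the highest level of the 5 genes and vri the next. Mean Pdp1 was 183 ± 38.3 TPM in female controls, 169 ± 53.7 in RNAi females, 208 ± 40.4 in male controls and 201 ± 40.5 in RNAi males (SD, n = 24 in each group here and below). Mean vri was 52.6 ± 13.5, 46.7 ± 14.5, 54.3 ± 18 and 49.0 ± 16 TPM in the same order. Clk, cyc and cwo lay close together: their group means ran from 23.9 to 29.4 TPM for Clk, from 21.9 to 26 for cyc and from 22.1 to 31.6 for cwo. Their order differed between groups, with Clk highest of the 3 in female controls and cwo highest in RNAi males, and most of these means lay within 1 SD of each other (2.70 to 6.71 TPM). Among 11 bHLH-PAS genes, the 2 partners CLK and CYC were thus encoded at similar levels, with means over all libraries of 26.8 and 23.5 TPM, next to tgo, which encodes the shared partner of other family members, at 22.8. The hypoxia factor sima (49.6 TPM) and the juvenile hormone receptor gce (30.6) were above them, and dysf was lowest at 0.94.

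The genes lie on 3 chromosome arms of dm6. Clk (FBgn0023076) is on 3L at 7763233 to 7775603, minus strand, and overlaps CG32371 on the same strand, which had a mean of 0.763 TPM. Pdp1 (FBgn0016694) is on 3L at 7811458 to 7867369, minus strand. It has 13 transcripts, and the value used is for the whole gene, so the isoform of the clock loop is not separated from the others. The gene cyc (FBgn0023094) is on 3L at 19813770 to 19815938, minus strand, with 1 transcript. The gene vri (FBgn0016076) is on 2L at 5288944 to 5311223, plus strand, and overlaps a noncoding RNA gene of the other strand. The gene cwo (FBgn0259938) is on 3R at 10388258 to 10400752, plus strand.

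The first comparison asked whether each gene cycled with a period of 24 h in constant darkness. The genes vri, Pdp1 and Clk did in all 4 groups, with vri and Pdp1 highest near CT12, the start of subjective night, and Clk highest near its end. Over the 2 days neither cyc nor cwo passed the test in any group. A group's rhythm was tested by fitting a cosine and sine over its 24 libraries with limma, and p-values are adjusted over all tested genes. The same test called 1.6% of all genes in female controls, 1.4% in RNAi females, 1.26% in male controls and 1.02% in RNAi males, against 3 of the 5 genes in each group. Only 33 of the 10568 genes (0.312%) passed in all 4 groups, and vri, Pdp1 and Clk are 3 of them. The call of Pdp1 was near the threshold. It was lost in all 4 groups with each library centred on its median gene, and also without mitochondrially encoded genes.

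**Figure D1:**
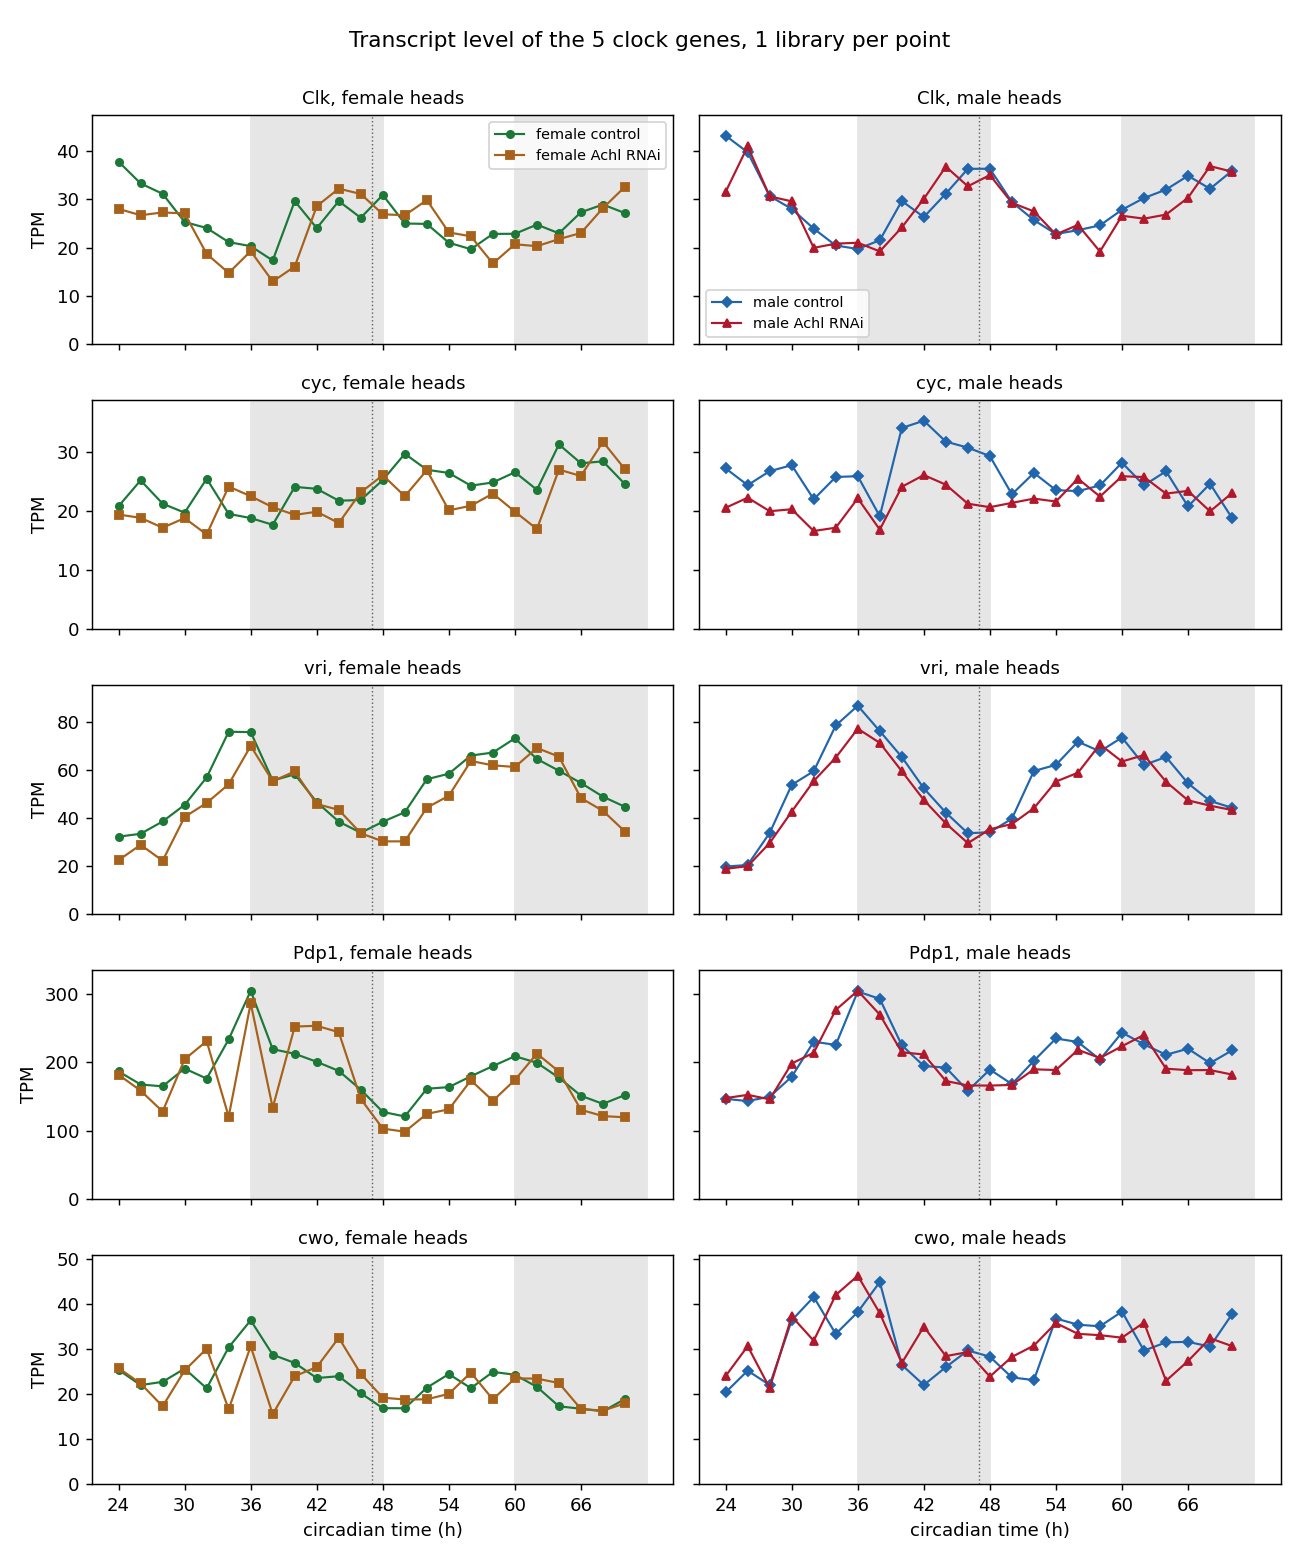
TPM (vertical axis) of each gene in every library against circadian time in hours (horizontal axis), female heads at left and male heads at right, 1 point per library. Grey marks subjective night and the dotted line parts day 1 from day 2. In male controls vri goes from 19.8 TPM at CT24 to 86.6 at CT36, while Clk is low where vri is high.

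The repressor gene vri had the largest rhythm of the 5. In male controls its libraries ran from 19.8 TPM at CT24, with a median of 56.9, to 86.6 at CT36. In RNAi males they ran from 18.9 at CT24, with a median of 47.4, to 77.0 at CT36. Libraries before CT28 were low and those around CT36 and CT60 high in both groups, whose ranges overlapped. In female controls vri ran from 32.2 TPM at CT24, with a median of 55.0, to 75.8 at CT34. In RNAi females it ran from 22.2 at CT28, with a median of 46, to 69.9 at CT36. The lowest female control library was thus above the lowest library of each other group, and the ranges again overlapped.

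The fitted peak-to-trough ratio of vri was 1.91 in female controls (adjusted p = 7.28e-06) and 2.28 in RNAi females (adjusted p = 5.42e-09). It was 2.50 in male controls (adjusted p = 5.09e-11) and 2.45 in RNAi males (adjusted p = 1.88e-10). On the log2 scale these ratios have an SE of 0.14. Its fitted peaks were at CT11.6, 12.8, 12.0 and 12.3 in the same order, with SE from 0.40 to 0.57 h. By p-value vri ranked 16th, 4th, 5th and 4th of all tested genes. The call was lost only in the 14 low-mt female control libraries taken alone, where the ratio was 1.63 (adjusted p = 0.154).

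Clk, the activator gene that VRI and PDP1 act on, ran opposite to vri. Its libraries ran from 17.3 TPM at CT38, with a median of 24.9, to 37.8 at CT24 in female controls. In RNAi females they ran from 13 at CT38, with a median of 24.9, to 32.6 at CT70. Male controls ran from 19.7 at CT36, with a median of 29.5, to 43.1 at CT24, and RNAi males from 19.2 at CT58, with a median of 28.4, to 40.9 at CT26. The 4 lowest libraries of each group lay between CT32 and CT40 or between CT54 and CT58, and the ranges of the 4 groups overlapped. The fitted ratio was 1.43 in female controls (adjusted p = 0.00257), 1.76 in RNAi females (adjusted p = 9.72e-08), 1.58 in male controls (adjusted p = 2.67e-05) and 1.67 in RNAi males (adjusted p = 1.51e-06). Fitted peaks were at CT23.2, 23.8, 22.3 and 22.7, with SE from 0.49 to 0.77 h. The call was lost in the low-mt female control libraries alone (ratio 1.32, adjusted p = 0.507) and in the 9 high-mt libraries of RNAi females alone (ratio 1.69, adjusted p = 0.0666).

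Pdp1, the bZIP gene of the other arm of the loop, was high where vri was high, with a smaller ratio. It ran from 121 TPM at CT50, with a median of 179, to 305 at CT36 in female controls. In RNAi females it ran from 98.7 at CT50, with a median of 153, to 287 at CT36. In males it ran from 144 at CT26 to 304 at CT36 in controls and from 146 at CT28 to 305 at CT36 in RNAi, with medians of 208 and 190. The highest library was at CT36 in each group, and the ranges overlapped. Fitted ratios were 1.5, 1.51, 1.52 and 1.58 in female controls, RNAi females, male controls and RNAi males, with adjusted p of 0.0368, 0.0387, 0.0303 and 0.0139. Its fitted peaks were at CT12.3, 13.9, 12.7 and 12.3. The call of Pdp1 is near the threshold: with each library centred on its median gene the adjusted p was 0.133, 0.25, 0.22 and 0.129, although the ratio was then 1.59, 1.56, 1.58 and 1.62. It was lost in all 4 groups as well without mitochondrially encoded genes (adjusted p = 0.216, 0.194, 0.152 and 0.114). In both female groups it was also lost with no filter on low values (0.0537 and 0.058) and with a 12 h harmonic in the model (0.0508 and 0.0542). On single days it was lost in both female groups on day 1 and in both male groups on day 2.

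The gene cwo, the bHLH-Orange repressor, had fitted ratios of 1.37 in female controls, 1.06 in RNAi females, 1.44 in male controls and 1.35 in RNAi males. Its adjusted p was 0.262, 0.968, 0.144 and 0.287, although the unadjusted p was under 0.05 in the 3 groups other than RNAi females, and the fitted peaks of the 3 groups with the larger ratios were at CT10.6, 11.3 and 10.9. The libraries ran from 16.2 to 36.4 TPM in female controls and from 15.5 to 32.5 in RNAi females. In males they ran from 20.4 to 44.8 in controls and from 21.3 to 46.2 in RNAi. The highest library was at CT36 or CT38 in 3 groups and at CT44 in RNAi females.

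The gene cyc, which encodes the partner of CLK and is known to be transcribed at an even level over the day, had ratios of 1.09, 1.18, 1.11 and 1.12. The adjusted p was 0.917, 0.688, 1 and 0.627. On day 2 alone cyc passed in RNAi females (ratio 1.39, adjusted p = 0.0111), where 28.9% of all genes passed. Libraries ran from 17.7 to 31.3 TPM in female controls, from 16 to 31.7 in RNAi females, from 18.8 to 35.3 in male controls and from 16.6 to 26.1 in RNAi males. Male control cyc was highest at CT42 on day 1, at 35.3 TPM, and the library of RNAi males of the same CT, at 26.1, was also the highest of its group.

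**Figure D2:**
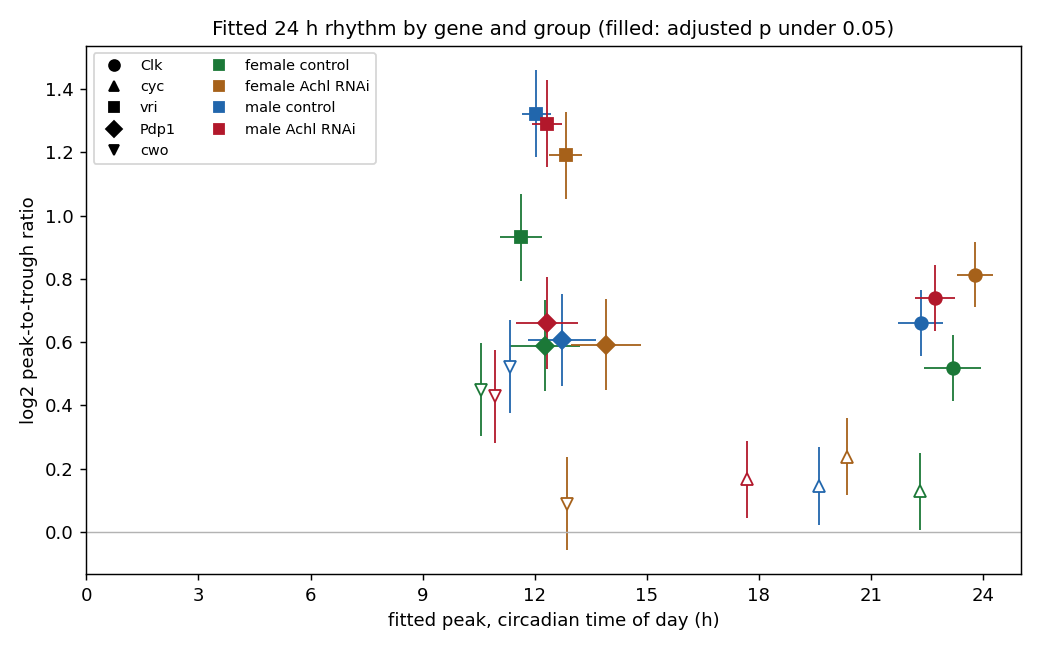
Log2 of the fitted peak-to-trough ratio (vertical axis) against the fitted peak time of day in hours (horizontal axis) for each gene and group, with bars of 1 SE. Filled symbols pass an adjusted p of 0.05: vri and Pdp1 lie between CT11.6 and CT13.9 and Clk between CT22.3 and CT23.8.

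Peak times were also fitted in each of the 8 cycles, 4 groups by 2 days. The Clk peak followed the vri peak by a median of 10.7 h, with a range from 8.83 to 12.5 h. The Pdp1 peak was later than the vri peak in 7 of 8 cycles, by a median of 0.484 h and with a range from -0.154 to 2.77 h. That median is under the SE of any single Pdp1 peak (0.639 to 2.34 h). The peak of tim, a CLK and CYC target whose protein blocks them, was later than that of vri in 8 of 8 cycles, by a median of 2.08 h. That of per, the other such target, was earlier in 6 of 8, with a median of -1.02 h. Clk and vri were opposed at the level of single libraries as well: over the 96 libraries, centred on each library's median gene and on each group's mean, their Pearson correlation was -0.68. It was -0.66, -0.60, -0.68 and -0.79 within female controls, RNAi females, male controls and RNAi males. That of vri and Pdp1 was 0.68 over all libraries, 0.65 and 0.55 in the female groups and 0.86 and 0.84 in the male groups. These libraries share the time course, so the coefficients describe it and carry no test.

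**Figure D3:**
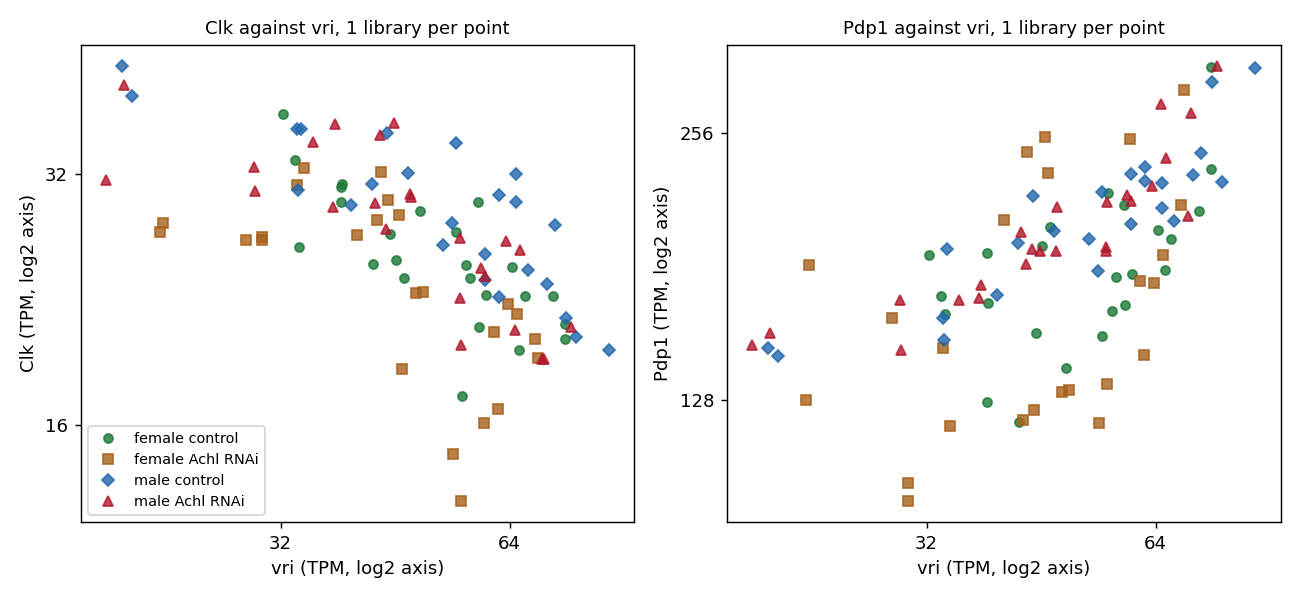
Clk (left) and Pdp1 (right) against vri, both axes TPM on a log2 scale, 1 point per library and coloured by group. Clk falls as vri rises in all 4 groups, and Pdp1 rises with vri, with a wider spread in the female groups.

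The next comparison asked whether Achl RNAi changed these rhythms. None of the 5 genes passed in either sex, and the test called 0.0189% of all genes in females and 0% in males. None of the 5 had an unadjusted p under 0.05 in that fit, where the lowest were 0.105 for vri and 0.112 for Clk in females. With CT as a replicate block these were 0.00205 and 0.0481, and the adjusted p was 0.242 and 0.534, so 0 of the 5 passed there too. In females the log2 ratio of RNAi minus control was 0.26 (SE 0.20) for vri and 0.29 (SE 0.15) for Clk, and in males -0.03 (SE 0.20) and 0.08 (SE 0.15). The vri peak came 1.2 h later in RNAi females than in female controls (SE 0.72) and 0.277 h later in males (SE 0.571). For Clk these differences were 0.592 h (SE 0.908) and 0.379 h (SE 0.807). The difference for Pdp1 was 1.63 h in females (SE 1.32) and -0.405 h in males (SE 1.24).

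Between the sexes the rhythms of the 5 genes did not pass either, in controls or under RNAi, where 0.00946% of genes passed in each. The log2 ratio of vri, female minus male controls, was -0.39 (SE 0.20), with an adjusted p of 1 and an unadjusted p of 0.117. With CT as a block its unadjusted p was 0.00272 and its adjusted p 0.633. On day 2 alone, cyc (adjusted p = 0.0196) and Pdp1 (adjusted p = 0.0458) passed for a sex difference under RNAi, as did 16.9% of all genes.

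The level comparison asked whether RNAi changed the mean of each gene over the 2 days. In females Clk, cyc and vri were lower under RNAi, and in males cyc was. The same test called 55.7% of all genes lower in females and 53.5% in males, with median log2 changes of -0.18 and -0.16, so the 3 of 5 and 1 of 5 lie near or under the background. In females the log2 change was -0.19 for vri (SE 0.07, adjusted p = 0.0129), -0.14 for cyc (SE 0.06, adjusted p = 0.0399) and -0.12 for Clk (SE 0.05, adjusted p = 0.0433). It was -0.15 for Pdp1 (adjusted p = 0.072) and -0.04 for cwo (adjusted p = 0.599), which did not pass. In males it was -0.23 for cyc (SE 0.06, adjusted p = 0.0012), and the others did not pass: vri -0.14 (adjusted p = 0.0748), Clk -0.06, Pdp1 -0.05 and cwo 0.03. With CT as a replicate block vri passed in males as well (-0.14, SE 0.04, adjusted p = 0.00261), where 56% of all genes were lower. The RNAi library was the lower of the same-CT pair for vri in 20 of 24 pairs in females and 21 in males, for cyc in 17 and 20, and for Clk in 15 and 15. For Pdp1 it was in 17 and 15, and for cwo in 12 and 12.

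Relative to the median gene, 0 of the 5 passed in either sex, and 0 had an unadjusted p under 0.05. With each library centred on its median gene, the log2 changes in females were 0.05 for Clk, 0.03 for cyc, -0.03 for vri, 0.02 for Pdp1 and 0.12 for cwo. In males they were 0.10, -0.07, 0.02, 0.11 and 0.19. The lowest adjusted p of these 10 values was 0.139, while 22.2% of all genes in females and 32.4% in males passed on that scale. A difference of the RNAi effect between the sexes passed for none of the 5, against 14.1% of all genes. The closest was cyc, at a log2 difference of 0.09 (SE 0.09, adjusted p = 0.606, unadjusted p = 0.312).

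Other clock genes were counted from a list of 27, of which 26 were found and tested, Achl itself, the RNAi target, among them. In females 0 were higher and 17 lower under RNAi, and in males 0 and 14, with list medians of -0.18 and -0.14. Without Achl, 16 and 13 of 25 were lower, beside the 55.7% and 53.5% of all genes given above. Among CLK and CYC targets, tim went from 271 to 221 TPM in females (log2 change -0.30, adjusted p = 5.29e-05) and from 256 to 201 in males (-0.36, adjusted p = 1.41e-06). The target per had -0.20 in females (adjusted p = 0.0505) and -0.32 in males (adjusted p = 0.0022). Among genes under VRI and PDP1 control or clock output, cry, the blue-light receptor, was called lower in both sexes. It went from 114 to 98.7 TPM in females and from 118 to 79.5 in males (-0.56, adjusted p = 2.06e-06). The output gene takeout (to) went from 424 to 280 TPM in females (-0.60, adjusted p = 3.11e-12) and from 415 to 233 in males (-0.83, adjusted p = 7.74e-19). With centred values, tim, cry and to remained lower in males and to in females. Without Achl, 2 of the 25 were rhythmic in female controls and 4 in each other group, beside 1.6%, 1.4%, 1.26% and 1.02% of all genes in the order used above.

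**Figure D4:**
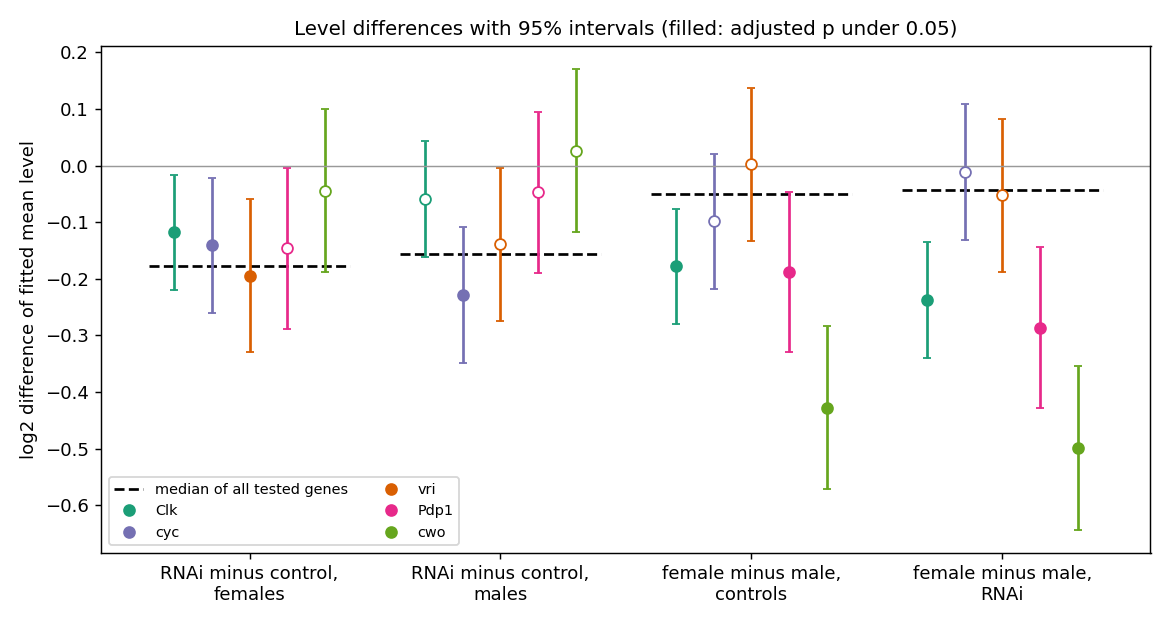
Log2 difference of the fitted mean level (vertical axis) of the 5 genes in 4 comparisons, with 95% intervals. Filled points pass an adjusted p of 0.05 and dashed lines give the median of all tested genes. In the RNAi comparisons vri in females and cyc in males lie below that median and the other genes above it. In both sex comparisons Clk, Pdp1 and cwo lie below it, cwo farthest.

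The gene with the largest sex difference of the 5 was cwo. The log2 level of cwo, female minus male, was -0.43 in controls (SE 0.07, adjusted p = 2.82e-07) and -0.50 under RNAi (adjusted p = 3.99e-09). The female library was the lower one in 20 of 24 same-CT pairs of controls and in 22 of 24 under RNAi. The ranges overlapped in both. For Clk the difference was -0.18 in controls (adjusted p = 0.00176) and -0.24 under RNAi (adjusted p = 3.39e-05), with the female library lower in 20 and 22 of 24 pairs. For Pdp1 it was -0.19 (adjusted p = 0.0177) and -0.29 (adjusted p = 0.000287), in 16 and 17 pairs. With centred values Pdp1 did not pass in controls (-0.16, adjusted p = 0.135) but did under RNAi (-0.25, adjusted p = 0.0175). Neither cyc (-0.10 and -0.01) nor vri (0.00 and -0.05) passed. These 3 of 5 in each comparison stand against 40.5% of all genes lower in females among controls and 41.3% under RNAi. Summed levels of marker genes moved with sex as well. The 6 neuron markers had a median sum of 2360 TPM in female and 3868 in male controls (ranges 1893 to 3268 and 3499 to 4443), and of 2272 and 3984 under RNAi (1368 to 3386 and 3379 to 5104). The 6 glia markers had 1394 and 2177 TPM in controls (1306 to 1541 and 1915 to 2321), and 1213 and 1789 under RNAi (1052 to 1392 and 1648 to 1975). No marker of either list had a median under 1 TPM in any group, and the part of these differences in the sex differences of the 5 genes was not tested.

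Against one mt:lrRNA set of female libraries the sex difference of Pdp1 was near 0 in controls and changed sign under RNAi, passing in neither. Those of Clk and cwo passed against either set. Against the high-mt female libraries only, Pdp1 differed by -0.01 in controls (adjusted p = 0.875) and by 0.14 under RNAi (adjusted p = 0.063), and against the low-mt libraries only by -0.31 and -0.53. For cwo the values were -0.22 and -0.25 against the high-mt libraries, with adjusted p of 0.023 and 0.0124, and -0.57 and -0.64 against the low-mt ones. For Clk they were -0.19 and -0.21 against the high-mt libraries and -0.19 and -0.25 against the low-mt ones, and all 4 passed. Against the high-mt libraries 49.2% of all genes were lower in each comparison, and the median gene differed by -0.18 and -0.19. The high-mt values of Clk and cwo thus lie close to the median gene. Against the low-mt libraries 36.3% and 37.7% were lower, and the median gene differed by 0.037 and 0.035. On day 1 alone in controls Clk, Pdp1 and cwo did not pass (adjusted p = 0.191, 0.999 and 0.0813) and cyc did, at -0.32, where 42.3% of all genes were lower. After mitochondrially encoded genes were left out and TPM rescaled, all 5 genes were lower in females in both comparisons, with cyc at -0.27 and -0.23 and vri at -0.17 and -0.27. On that scale 55.4% and 56.7% of all genes were lower, and the median gene differed by -0.21 and -0.24.

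Within day 1, when females held both sets, the low-mt libraries of RNAi females lay below the high-mt median in Pdp1 and cwo. The ranges of both sets overlapped. The low-mt libraries were those of CT34, CT38 and CT46, with Pdp1 at 121, 134 and 147 TPM. The 9 high-mt libraries of that day had a median of 231 and ran from 128 to 287. The CT34 and CT38 libraries lie on each side of the highest library of the course, CT36, while CT46 lies away from the Pdp1 peak. For cwo the same 3 libraries had 16.6, 15.5 and 24.5 TPM. The high-mt ones had a median of 25.8 and ran from 17.3 to 32.5. Clk had 14.7, 13 and 31.1 TPM in the low-mt libraries, and the first 2 of these are the lowest of the group. CT34 and CT38 also lie in the span where Clk was low in every group. In female controls the low-mt day 1 libraries, CT32 and CT40, had 176 and 213 TPM of Pdp1, inside the range of the high-mt ones, 160 to 305. The part of the mt:lrRNA difference in the Pdp1, cwo and Clk values was not tested.

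The level of the genes was then compared between the days. In both female groups cyc and vri were higher and Pdp1 and cwo lower on day 2, while in males vri passed under RNAi, with values close to it in controls. In female controls 48.3% of all genes were higher and 12.8% lower on day 2, in RNAi females 51% and 8.78%, in male controls 0.00946% and 0.114%, and in RNAi males 18.5% and 0.729%. In female controls the log2 change was -0.33 for cwo (SE 0.09), -0.28 for Pdp1 (SE 0.08), 0.29 for cyc (SE 0.07) and 0.22 for vri (SE 0.06), and in RNAi females -0.24, -0.42, 0.25 and 0.23. The adjusted p of these 8 values ran from 9.22e-06 to 0.0222. The median gene changed by 0.16 and 0.19, so Pdp1 and cwo moved against it. With centred values they fell by 0.45 and 0.51 on the log2 scale in controls and by 0.65 and 0.46 under RNAi, and passed. The gene vri no longer did (0.05 and 0.00). Of all genes, 27.8% in female controls and 30.6% in RNAi females were then lower, and 25.7% and 23% higher. On that scale cyc had 0.12 in controls (adjusted p = 0.0418) and 0.03 under RNAi (adjusted p = 0.654), and Clk passed in controls, at -0.25 (adjusted p = 0.00136). Without mitochondrially encoded genes cyc did not pass in either female group (adjusted p = 0.0612 and 0.125). In males vri had 0.23 in controls (SE 0.06, adjusted p = 0.103, unadjusted p = 0.000363) and 0.26 under RNAi (SE 0.06, adjusted p = 0.00259), and the difference between the male groups was not tested. With centred values it was 0.27 in controls (adjusted p = 0.0295) and 0.14 under RNAi (adjusted p = 0.146). There 0.189% and 4.99% of all genes were higher. The pooled male value, computed after the data were seen, was 0.25 (adjusted p = 9.18e-05), where 2.78% of all genes were higher.

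The shape of the rhythm also differed between the days for vri and Clk. The F test over the 4 groups gave an adjusted p of 2.4e-06 for vri and of 0.000989 for Clk, and called 0.994% of all genes. In male controls the lowest vri library was 19.8 TPM on day 1 and 34.1 on day 2, and the highest 86.6 and 73.4. In RNAi males the lowest was 18.9 and 35.3, and the highest 77.0 and 70.5. In female controls the lowest was 32.2 and 38.4, and in RNAi females 22.2 and 30.3. The trough was thus higher on day 2 in all 4 groups, while the highest library was lower on day 2 in all 4.

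The fitted ratio of vri went from 3.53 to 1.82 in male controls, from 3.42 to 1.77 in RNAi males, from 2.19 to 1.67 in female controls and from 2.50 to 2.13 in RNAi females. Its fitted trough was 1.67, 1.70, 1.34 and 1.28 times as high on day 2 in that order, and its fitted peak 0.841, 0.863, 1.02 and 1.08 times. Its fitted peak was earlier on day 2 in all 4 groups, with differences from -0.491 to -1.33 h. The SE of a single vri peak ran from 0.263 to 0.647 h, so the smallest shift, in female controls, is not resolved. The SE of a difference of 2 peaks is larger, and none of the vri shifts was tested on its own. The ratio of Clk went from 1.88 to 1.49 in male controls, from 1.83 to 1.58 in RNAi males, from 1.62 to 1.34 in female controls and from 2.00 to 1.54 in RNAi females. The fitted Clk peak was earlier too, by differences of -3.80, -2.11, -3.09 and -0.186 h. The SE of a single Clk peak ran from 0.482 to 1.13 h, so the shift in RNAi females is not resolved. The other Clk shifts were not tested on their own either. The calls of both genes held under 6 other settings of scaling, filter and fit, with adjusted p up to 4.02e-06 for vri and 0.00807 for Clk.

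**Figure D5:**
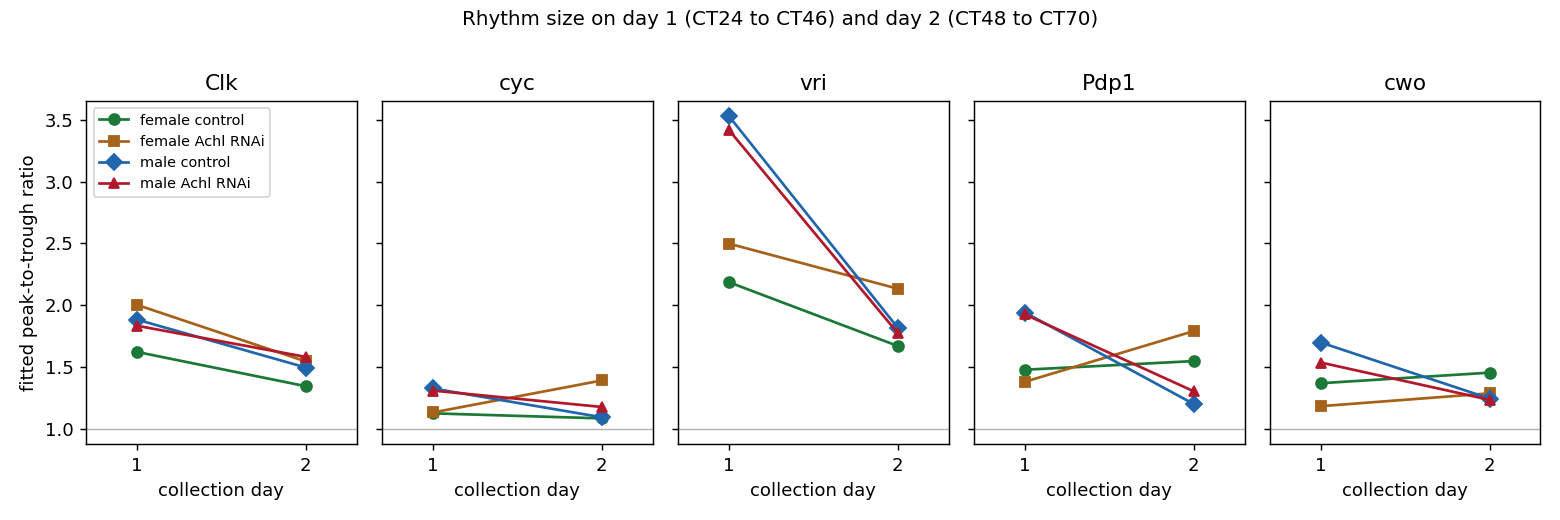
Fitted peak-to-trough ratio (vertical axis) of each gene on day 1 and day 2 (horizontal axis), 1 line per group. Lines for vri and Clk go down in all 4 groups, and those for Pdp1 and cwo go down in males and up in females.

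Split by sex, the day difference was not alike in its background. In males 4 of the 5 passed (Clk, cyc, vri and Pdp1), but so did 34.9% of all genes, and the median fitted ratio of all genes went from 1.23 to 1.16 in controls and from 1.32 to 1.15 in RNAi. In females 0 of the 5 passed by limma, against 1.73% of all genes, while vri, Pdp1 and Clk had an unadjusted p under 0.05 (0.0161, 0.0455 and 0.00637). A test of the difference between the sexes called cyc, vri, Pdp1 and cwo (adjusted p from 0.00347 to 0.0484), with 36.6% of all genes. Pdp1 went from a ratio of 1.94 to 1.2 in male controls and from 1.92 to 1.30 in RNAi males, but from 1.48 to 1.55 and from 1.38 to 1.79 in female controls and RNAi. These splits by sex were chosen after the data were seen.

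For each gene, the tested genes whose centred values followed it most closely over the 96 libraries were listed. For vri they were tim (r = 0.81), per (0.80), gol (0.73), Gp210 (0.72) and Usp8 (0.69), with Pdp1 6th, and the most opposed were CG10513 (-0.87), CG34180 (-0.84) and Cyp6a21 (-0.78). For Clk they were CG10514 (0.80), the photoreceptor protein kinase C gene inaC (0.78), CG10553 (0.72), CG44195 (0.72) and CG32369 (0.71). The gene most opposed to Clk was per (-0.87), followed by Usp8 (-0.70) and Slob (-0.68). The 2 CLK and CYC targets per and tim therefore head the vri list, and per lies at the far end of the Clk list.

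Pdp1 and cwo were close to each other, with r = 0.88 over all libraries and from 0.84 to 0.94 within groups. In their own lists vri ranked only 1319th and 2526th. The values were not centred on day, so these coefficients also carry the day 2 fall of Pdp1 and cwo in females. The gene nearest to Pdp1 was Moe (0.89), which encodes moesin, a linker of actin to the membrane, followed by inaF-B (0.89), CG31145 (0.89), cwo and sif (0.88). Those nearest to cwo were CG31145 (0.89), Pdp1, sif (0.88), puc (0.88) and jim (0.88). The gene most opposed to Pdp1 was cry (-0.87), before CG15118 (-0.86) and alc (-0.86). For cwo it was inaD (-0.87), before alc (-0.86) and eIF3l (-0.85). No gene followed cyc as closely: the highest were ND-B14.5B (0.52), Chchd3 (0.52), CG5919 (0.51), ND-B14 (0.51) and mip130 (0.51), and the lowest Mcr (-0.52), CG13876 (-0.50) and CG31731 (-0.49). Clk ranked 5662nd of the genes ordered by likeness to cyc, although their proteins act as a pair.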

How the data were processed

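Per the submitters' processing notes, the authors used STAR and RSEM with the dm6 build; tool versions were not given in the sources used here. As measurements, the authors deposited TPM, 1 value per gene and library, and no counts or depths were used. Gene positions come from Ensembl release 115 (BDGP6, which is dm6). The test used log2(TPM + 1) of 10568 genes, those that reached 1 TPM in 24 or more libraries, so folds of low genes are understated. A single limma 3.58.1 fit (R 4.3.3; options trend and robust) covered the 96 libraries, with a mean, cosine and sine of period 24 h per group, or per group and day. P-values were adjusted by Benjamini-Hochberg over all tested genes with a threshold of 0.05. Without replicates at a CT, they reflect only how far libraries scatter about the fitted curve. The scripts were tested on simulated data. Figures used Python 3.11.15 and matplotlib 3.10.9. The 5 genes, the clock list (E75 was not found by symbol) and the bHLH-PAS list were chosen with earlier results of these data known. The text names the 5 genes, per, tim, cry and to from the clock list, and the 5 genes of highest and 3 of lowest correlation with each of the 5. Alternatives were other scalings, pseudocount 0.1, no filter, no trend or robust option, an added 12 h harmonic, single days, a replicate block for CT, and the mt:lrRNA sets at 50000 TPM. Fits by sex for the days, and mt:lrRNA sets in the sex comparisons, were added after the data were seen.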

Additional observations from a re-analysis of the deposited data

Results flagged for a closer look

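The rhythm of vri differed between the days over the 4 groups: the fitted difference of the courses had a peak-to-trough ratio of 1.61 (adjusted p = 2.4e-06). For Clk this ratio was 1.428 (adjusted p = 0.000989). The change of the rhythm from day 1 to day 2 differed between females and males for vri, with a ratio of 1.613, for Pdp1 with 1.945, for cyc with 1.689 and for cwo with 1.69. The last 4 come from a test added after the data were seen, in which 36.6% of all genes passed.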

How the results depend on the processing

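Counts are of the 5 genes and values are log2 differences unless said otherwise. Of 845 values for single genes recomputed under an alternative, 33 changed sign, with or without a change of call. Of the others, 51 lost the call, 17 gained it and 744 kept their side of the threshold. Sign was compared for level values. Rhythm differences were compared by call only, and rhythms by peak time only where both fits were called. Pseudocount 0.1 and the fit with no trend or robust option changed none.

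Median centring left 0 called for RNAi in females and in males, and on day 2 left 2 in RNAi females, 0 in RNAi males and 1 in male controls. Of all genes, 22.2% and 32.4% passed for RNAi on that scale, and 53.6%, 8.93% and 0.426% for day 2 in the same order. It turned the RNAi values in females to 0.0496 (Clk), 0.0267 (cyc), 0.0215 (Pdp1) and 0.12 (cwo), and in males to 0.10 (Clk), 0.0210 (vri) and 0.11 (Pdp1). It turned the sex difference of cyc under RNAi to 0.0219, and the day 2 change of Clk to -0.14 in RNAi females and -0.0920 in RNAi males. In pooled males that change became -0.00669 for Clk, -0.0150 for Pdp1 and -0.0359 for cwo, and in pooled females -0.20 for Clk.

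Without mitochondrially encoded genes, 5 were called in each sex comparison and 2 on day 2 in RNAi females. Of all genes, 55.4% and 56.7% were lower in females in the sex comparisons, and 19% lower on day 2 in RNAi females. The sex difference of vri in controls was -0.17, and the day 2 change of Clk was -0.0718 in RNAi females and -0.0256 in RNAi males. With no filter 1 was called for RNAi in females.

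On day 1 alone 1 was called for sex in controls, where 42.3% of all genes were lower, and Pdp1 under RNAi in males was 0.0210. On day 2 alone 0 were called for RNAi in males and 2 for the rhythm between sexes under RNAi, where 30.3% and 16.9% of all genes passed. On that day cwo under RNAi was 0.00476 in females and -0.0509 in males. The sex difference was 0.13 for cyc and -0.00433 for vri in controls and 0.0516 for cyc under RNAi, and the RNAi difference between sexes was 0.0260 (Clk), -0.0739 (cyc) and 0.0556 (cwo).

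With a replicate block for CT, 2 were called for RNAi in males (cyc and vri) and 3 in females, where 56% and 58.8% of all genes were lower. No other call of the 5 changed among the level and rhythm differences between groups. The rhythm within a group and the comparisons of days were not refitted with that block. The high-mt female libraries left 0 called for RNAi in females, with Pdp1 at 0.10, where 42.9% of all genes were lower. They gave an RNAi difference between sexes of 0.15 for Pdp1. Against them the sex difference was -0.11 for vri in controls and 0.14 for Pdp1 under RNAi. Against the low-mt libraries it was 0.0361 for cyc in controls, and 0.11 (cyc) and 0.0216 (vri) under RNAi. The low-mt female controls alone had 1 rhythmic gene, where 0.587% of all genes passed. For the rhythm between days, males alone gave 4 and females alone 0, where 34.9% and 1.73% of all genes passed. The causes of these changes were not tested.

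Depth is unknown, and with 1 library per time point a shift of peak time smaller than its SE cannot be resolved.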
